A study of Mus musculus with 3 samples.

Results

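Genes of inwardly rectifying, leak, calcium-activated, sodium-activated and hyperpolarisation-activated channels were read in ribosome-bound RNA of the mouse dentate gyrus. Members were all gene symbols of the Kcnj (inward rectifier), Kcnk (2-pore leak), Kcnn (small and intermediate conductance, calcium-activated), Kcnt (sodium-activated) and Hcn (hyperpolarisation-activated) families, with Kcnma1 and its Kcnmb auxiliary subunits. The rule used names alone and found 44 of 32531 listed genes. The material was 1 group of 3 immunopurified libraries, named replicates 1 to 3, from untreated adult C57BL/6J mice of the line Penk-EGFP/Rpl10a (NIDA186). The transgene places a fluorescently tagged ribosomal protein under control of Penk, which encodes proenkephalin, and the tag serves to pull down ribosomes with their RNA. Which cells carried the tag, and whether each replicate was its own animal, is not stated in the labels. P-values therefore measure spread that could be technical. With no input RNA to compare against, genes were set against other genes of their own library.

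These channels set how a neuron behaves near rest. Inward rectifiers and leak channels pass potassium and hold the membrane potential down, and dentate granule cells are known for an unusually negative resting potential. G protein-gated inward rectifiers (GIRK channels) open when receptors such as GABA-B release G protein beta-gamma subunits. Hcn channels open on hyperpolarisation and carry a depolarising cation current. Kcnma1 and Kcnn channels open with calcium during and after spikes, and Kcnt channels open with internal sodium.

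Most of these proteins share 1 feature, the selectivity filter, a short loop of the pore with a central glycine, then an aromatic residue, then glycine. The coding sequence was scanned for it in the longest coding transcript of each member (GENCODE vM21, GRCm38). The 5 codons searched stood for threonine, cysteine or serine, then isoleucine, valine, threonine or leucine, then glycine, then tyrosine, phenylalanine or leucine, then glycine. All 14 Kcnk genes held 2 matches, as 2-pore subunits. All 15 Kcnj, 4 Kcnn and 2 Kcnt genes and Kcnma1 held 1, as did 3 of the Hcn genes, while Hcn4 held 2. The scan covered the whole coding sequence, so a match need not lie in a pore loop. Whether both Hcn4 matches do was not checked. None of the 4 Kcnmb auxiliary genes held a match (0 each), since they do not line the pore. Members of several families are shown, to set the filters of the families side by side, on the coding strand, 30 bases each, with the filter codons in capitals.
Hcn3: cacatgctaTGCATTGGCTATGGGcagcag
Kcnj3: accgaggccACCATCGGCTATGGCtaccgc
Kcnj6: acagaaaccACCATCGGTTATGGCtaccgg
Kcnk1: gtgctctccACCACAGGCTATGGCcacacg
Kcnk2: gttatcacaACCATAGGATTTGGAaacatc
Kcnma1: acaatgtctACAGTGGGTTATGGGgacgtt
Kcnt2: acattttctACTGTGGGCTTTGGGgatgtc
The codon after the central glycine is TAT (tyrosine) in all of those shown but Kcnk2 and Kcnt2, where it is TTT (phenylalanine). Kcnj3 and Kcnj6, whose proteins assemble into 1 channel, differed at 5 of 30 bases. Kcnma1 and Kcnt2 differed at 7 of 30.

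Gene totals were 5348761, 19195559 and 11059982 counts in replicates 1 to 3. CPM denotes the read count divided by the scaled size of its library. A count of 0 allows up to 3 counts, which is 0.707, 0.131 and 0.257 CPM in the respective libraries; this limit covers counting error only, and copies made by PCR are not independent molecules. Members with at least 10 counts numbered 19, 30 and 24 in replicates 1 to 3, where 27.0, 43.8 and 36.9% of all listed genes reached that count. At least 10 counts in every library were found for 16 members, against 24.3% of all listed genes. Another 16 reached 10 counts in some libraries, against 22.5% of all listed genes. Of the rest, 2 stayed under 10 everywhere, and 10 had 0 counts in every library, against 45.7% of all listed genes. The 6 granule cell markers summed to 1749, 1901 and 983 CPM in replicates 1 to 3, but did not move together. Prox1 (658, 475 and 261 CPM) and C1ql2 (143, 64.7 and 8.81 CPM) fell from replicate 1 to 3. Dsp rose (27.1, 99.3 and 179 CPM). Rfx3, Stxbp6 and Calb1 were highest in replicate 2, Calb1 with 2, 1350 and 121 counts. The low level of any gene in bulk RNA may mean fewer cells of a type or less RNA per cell, which cannot be told apart here.

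Levels are given as CPM per kb of exon, so that long and short genes can be set side by side, and were tested against the median gene of the same library. Of the 15 members kept by the filter on low counts, 1 lay above the median gene and 0 below it at an adjusted p under 0.05 (limma TREAT, log2 threshold of 1). Over all 7924 genes tested, 9.76% lay above and 3.74% below, so the members' count is near that background. At an unadjusted p under 0.05 the limma counts were 3 above and 2 below. By edgeR 3 of 15 were called above and 0 below, where 13.8% of all genes lay above and 3.05% below. At an unadjusted p under 0.05 edgeR had 2 members below. Shares of all genes at the unadjusted threshold were not computed, so those counts have no background here. The median of the 15 tested members was 0.08 on the log2 scale, at percentile 54.3 of all tested genes. Over all 44 members the median lay at -4.46 (SD 1.20, n = 3), and over all genes with an exon length at -3.90. With counts below 3 set to 3 the members' median was -3.80. The median over all genes was not computed in that setting, so -3.80 has no background here.

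**Figure D1:**
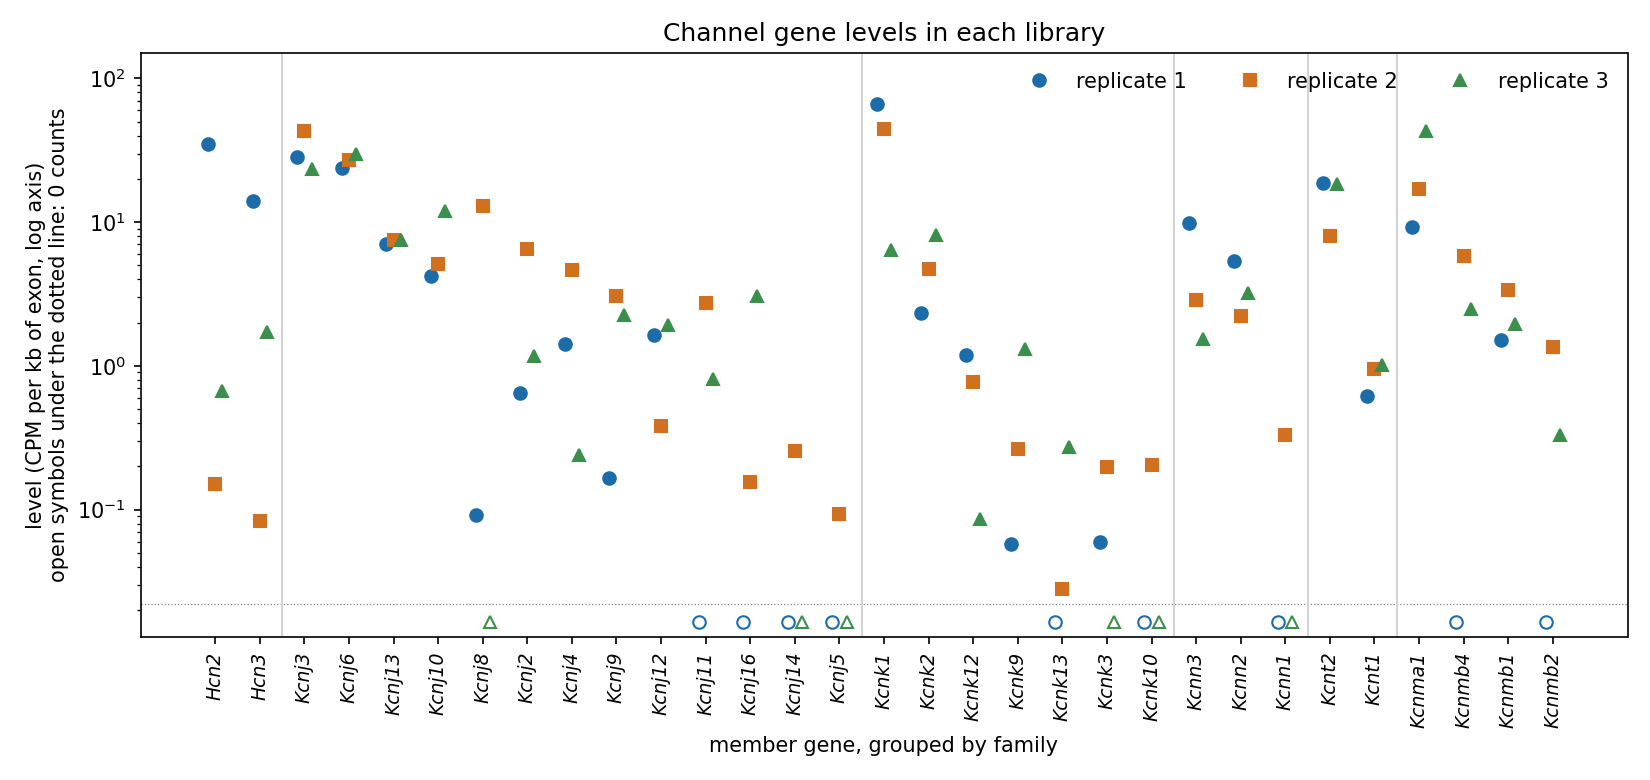
Level of the members reported here with at least 10 counts in some library, in CPM per kb of exon on a log axis, grouped by family, with 1 symbol per library and open symbols for 0 counts. Kcnj3, Kcnj6 and Kcnj13 sit close together across libraries, whereas Hcn2 spans 0.150 to 35.1.

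The G protein-gated inward rectifiers Kcnj3 and Kcnj6 made up most of the Kcnj family and were among the steadiest members. Kcnj3 (chromosome 2, 55435970 to 55598145, plus strand) had 632, 5176 and 1431 counts, or 28.6, 43.3 and 23.5 CPM per kb in replicates 1 to 3. Replicate 2 was highest, and all 3 libraries lay above the median gene. Its level of 2.35 above that gene (log2, SE 0.46) was the 1 member call (adjusted p = 0.0387, limma). By limma it was lost when replicate 2 (2.05, adjusted p = 0.340) or replicate 3 (2.69, adjusted p = 0.0786) was left out, with libraries thinned to equal depth (2.08, adjusted p = 0.0978) and with the longest transcript as length (1.90, adjusted p = 0.179). In GENCODE vM21, 1621 exon bases of Kcnj3 are shared with Gm26794, a noncoding gene on the opposite strand that has no row in the counts.

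Kcnj6 (chromosome 16, 94748636 to 94997701, minus strand), the second subunit of the neuronal GIRK channel, had 768, 4700 and 2655 counts. These were 23.7, 26.9 and 29.8 CPM per kb, a mean of 26.8 ± 3.02 (SD, n = 3), so the libraries were nearly level. Its level of 2.14 (SE 0.46) just missed the threshold (adjusted p = 0.0768, limma). It passed with the longest transcript as length (2.76, adjusted p = 0.00639, limma), which is 3627 bases against 7633 over all exons, and by edgeR (2.14, adjusted p = 0.0311). The order of Kcnj3 and Kcnj6 was not fixed: the log2 difference was 0.21 (SD 0.52, n = 3), negative in replicate 3, and -0.87 with transcript length.

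The other GIRK subunits were lower. Kcnj9 had 3, 303 and 114 counts, or 0.165, 3.08 and 2.27 CPM per kb. It lay below Kcnj3 in 3 of 3 libraries, by a log2 difference of -4.77 (SD 2.08, n = 3). Kcnj5, best known from heart and adrenal cortex, had 0, 10 and 0 counts. Together Kcnj3 and Kcnj6 were the top members of their family in each library: Kcnj3 held 42.3, 38.1 and 28.5% and Kcnj6 35.1, 23.6 and 36.2% of its summed CPM per kb.

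The strong inward rectifiers, which clamp the resting potential of many excitable cells, were low and uneven. Kcnj2 had 15, 808 and 75 counts, or 0.650, 6.48 and 1.18 CPM per kb, with replicate 2 well above the others. Kcnj4 had 13, 230 and 6 counts, again highest in replicate 2. Kcnj12 had 19, 24 and 62 counts and was lowest in replicate 2 at 0.381 CPM per kb, where Kcnj2 was highest. Kcnj14 had 0, 16 and 0 counts. Neither tested gene passed the threshold: Kcnj2 lay at -1.79 (SE 0.83, adjusted p = 0.481) and Kcnj12 at -2.41 (SE 0.80, adjusted p = 0.206, limma). Without length correction Kcnj12 was called below (-3.36, adjusted p = 0.00956, limma).

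The pore genes of ATP-sensitive channels, which close when cell ATP is high, were both absent or nearly so in replicate 1. Kcnj11, the pore of the neuronal and beta-cell form, had 0, 231 and 35 counts. Kcnj8 (chromosome 6, 142564837 to 142571614, minus strand), the pore of the vascular form, had 1, 760 and 0 counts, so nearly all of its reads came from replicate 2. There Kcnj8 made up 11.5% of the summed Kcnj CPM per kb and Kcnj11 2.41%, while in replicate 3 Kcnj11 held 0.990% and Kcnj8 0%. Kcnj8 is also a marker of pericytes, and the 6 pericyte and smooth muscle markers summed to 654, 1112 and 186 CPM, highest in the same library, with 0 of the 6 at 0 counts in any library. Among them Rgs5 had 370, 747 and 67.2 CPM, highest in replicate 2. Abcc9, the regulatory subunit that pairs with Kcnj8, had 232, 216 and 90.5 CPM and was highest in replicate 1. In replicate 1 these markers were present while Kcnj8 was at 1 count. Their part in the Kcnj8 values was not tested.

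Kcnj10 and Kcnj16 encode the inward rectifiers by which astrocytes and other glia take up potassium. Kcnj10 had 97, 631 and 755 counts, or 4.23, 5.09 and 11.9 CPM per kb, with replicate 3 highest. Kcnj16 had 0, 14 and 142 counts, also highest in replicate 3, and lay below Kcnj10 in 3 of 3 libraries. Kcnj10 stood at the median gene (0.08, SE 0.64, adjusted p = 0.999, limma). The 7 astrocyte markers summed to 154, 131 and 358 CPM, likewise highest in replicate 3, with 1 of 7 (Gja1) at 0 counts in replicate 1. Aqp4 had 24.8, 61.3 and 96.0 CPM and Slc1a3 112, 32.5 and 170 CPM, both highest in replicate 3. Gfap, S100b and Gjb6 were also highest there. The remaining astrocyte markers were not: by CPM, Gja1 (0, 296 and 129 counts) was highest in replicate 2. Aldh1l1 (23, 3 and 14 counts) was highest in replicate 1. Oligodendrocyte markers summed to 877, 733 and 1204 CPM. Their part in the Kcnj10 and Kcnj16 values was not tested.

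Kcnj13 (chromosome 1, 87386363 to 87394729, minus strand), known from choroid plexus and retinal pigment epithelium, had the narrowest range of the tested members. It had 38, 219 and 112 counts, or 7.05, 7.53 and 7.55 CPM per kb, a mean of 7.38 ± 0.279 (SD, n = 3). The differences between libraries did not exceed counting error (Poisson chi-square, adjusted p = 0.929). Choroid plexus and ependymal markers did not follow it: Ttr had 0, 477 and 0 counts, Folr1 0, 1 and 0, and the 4 markers summed to 6.37, 56.8 and 4.53 CPM. Kcnj13 lies inside Gigyf2, on the opposite strand, with 623 exon bases shared in GENCODE vM21. Gigyf2 had 854, 2440 and 2027 counts. The strand setting of the counting is not given in the sources used here, so reads of these genes cannot be told apart. The renal inward rectifier genes Kcnj1 and Kcnj15 had 0 counts in each library.

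**Figure D2:**
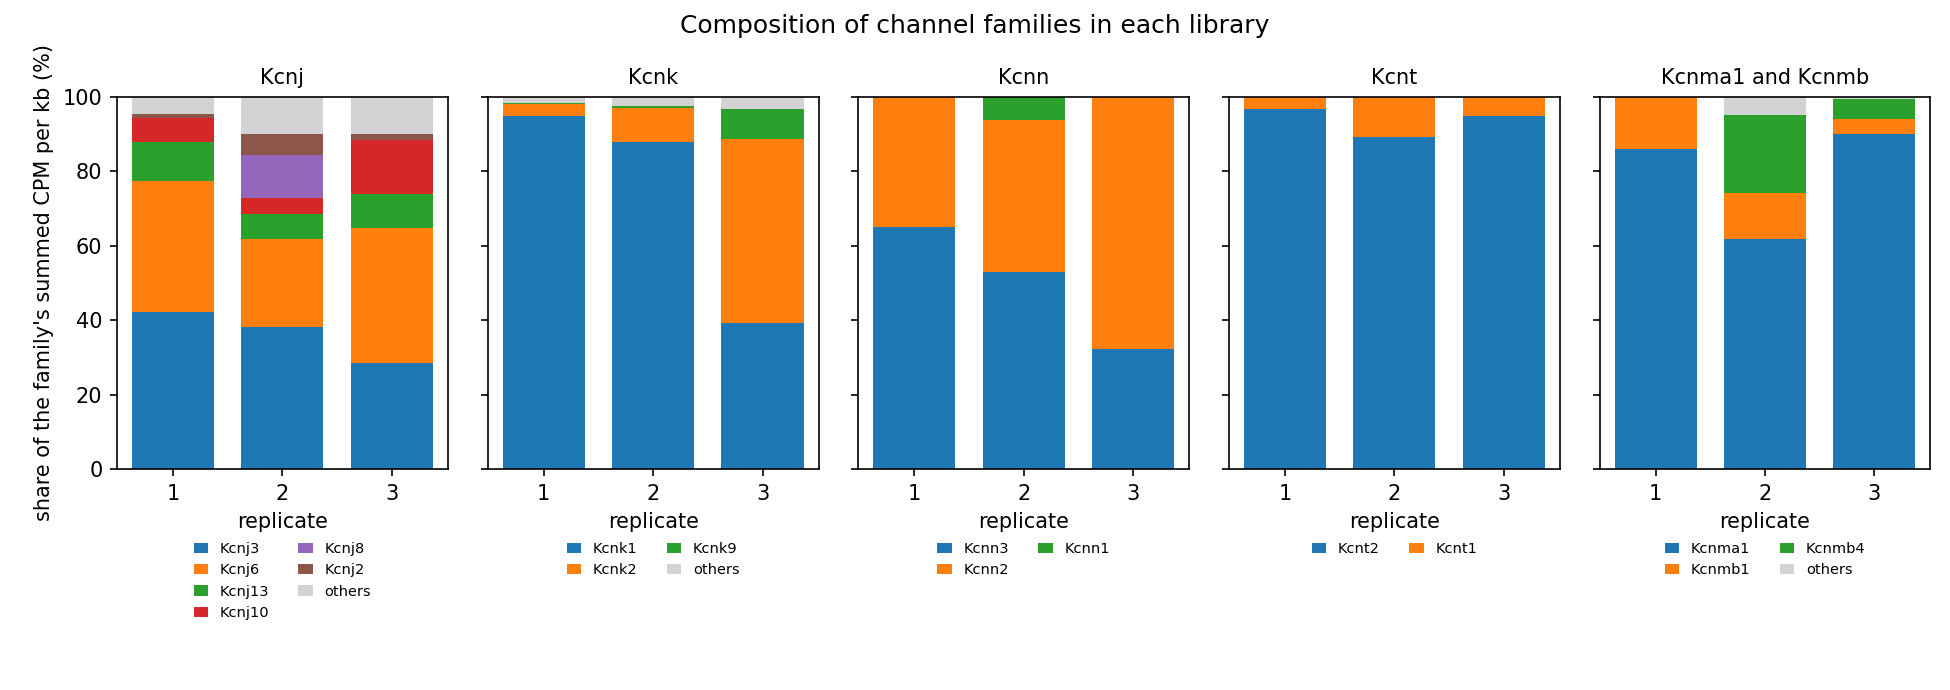
Share of each member in the summed CPM per kb of its family, in percent, as stacked bars for each library; members under 5% in every library are pooled as others. Kcnt2 and Kcnma1 lead their families in each library, whereas Kcnk1 falls to 39.2% in replicate 3. The Hcn family is not drawn.

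Among the Hcn genes, Hcn2 and Hcn3 were concentrated in replicate 1. Hcn2 (chromosome 10, 79716634 to 79736108, plus strand), a slowly opening and strongly cyclic AMP-sensitive subunit, had 476, 11 and 25 counts, or 35.1, 0.150 and 0.669 CPM per kb. Hcn3 had 248, 8 and 83 counts, or 14.1, 0.0841 and 1.71 CPM per kb. Replicate 1 thus held most Hcn2 and Hcn3 reads although it was the smallest library. The log2 difference between Hcn2 and Hcn3 was 1.32, 0.71 and -1.28 in replicates 1 to 3, so the order turned in replicate 3. Hcn4, the sinus node subunit, had 0 counts in each library. Hcn2 and Hcn3 did not pass the filter and were not tested. Part of Hcn3, 711 exon bases, is shared with Pklr on the opposite strand, which had 0, 6 and 0 counts.

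**Figure D3:**
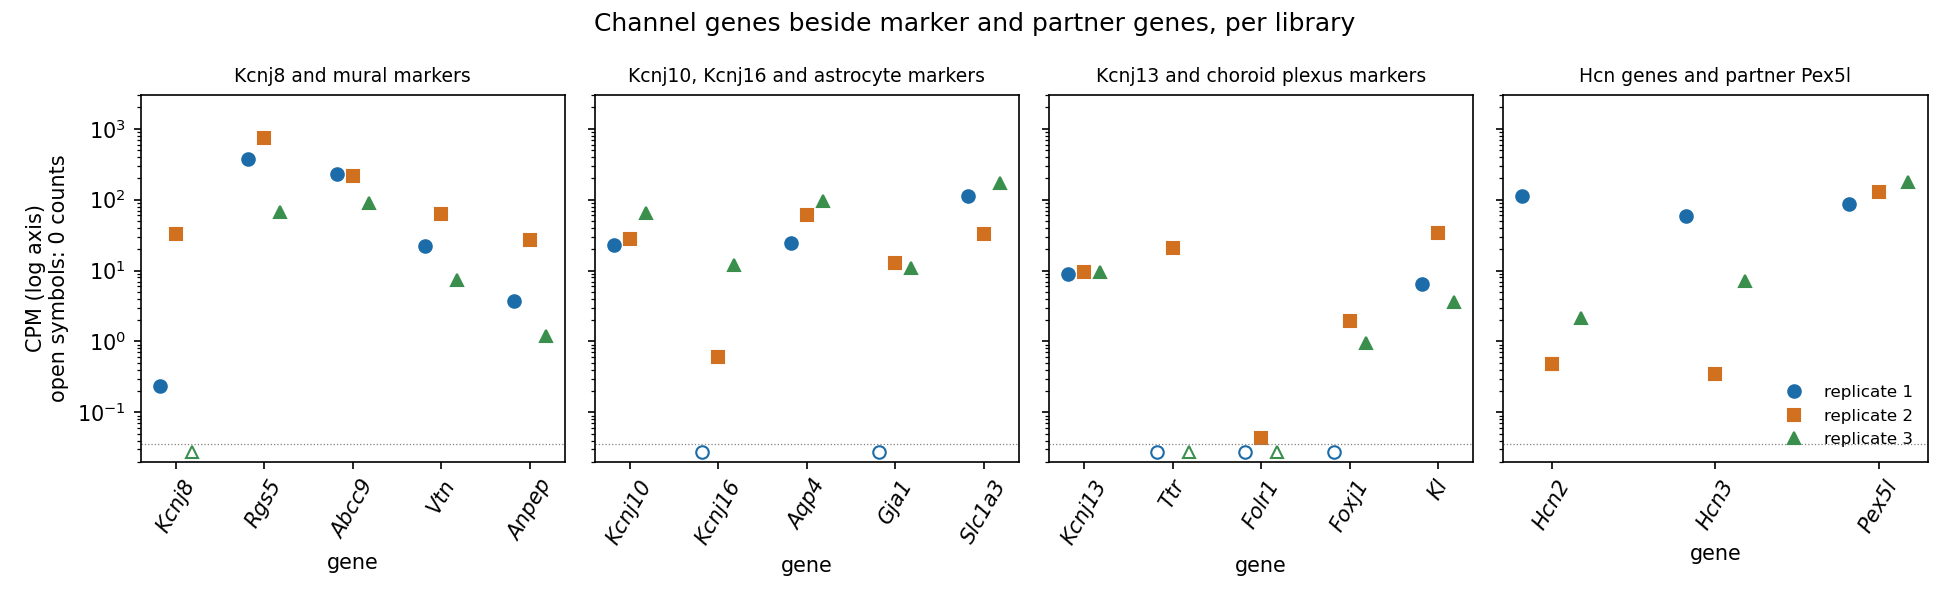
CPM of selected members beside marker or partner genes, on a log axis, with 1 symbol per library and open symbols for 0 counts. Replicate 2 is highest for Kcnj8, Rgs5, Vtn and Anpep but not for Abcc9, which is highest in replicate 1. Replicate 3 is highest for Kcnj10, Kcnj16, Aqp4 and Slc1a3 but not for Gja1, and replicate 1 for Hcn2 and Hcn3.

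Of the leak channel genes only Kcnk1 and Kcnk2 reached 10 counts in every library. Kcnk1 (chromosome 8, 125995170 to 126030685, plus strand), a weakly conducting 2-pore subunit found in neurons and astrocytes, had 632, 2286 and 168 counts. These were 66.7, 44.7 and 6.43 CPM per kb, with replicate 3 far below the other libraries. The values in replicates 1 and 2 were the highest of any member in either library. Its level of 2.15 (SE 0.59) missed the threshold (adjusted p = 0.165, limma). Kcnk1 passed without replicate 3 (3.32, adjusted p = 0.00817, limma) and by edgeR (2.73, adjusted p = 0.00432). It also passed with no filter (4.09, adjusted p = 9.1e-04, limma), which lowers the median gene, so that 17.8% of all genes lay above. Without length correction the level of Kcnk1 was 0.91 (adjusted p = 0.832, limma).

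Kcnk2, a mechano- and lipid-sensitive channel, had 49, 532 and 468 counts, or 2.34, 4.70 and 8.10 CPM per kb, highest where Kcnk1 was lowest. The log2 difference between Kcnk1 and Kcnk2 was 4.82, 3.24 and -0.32, so the order turned in replicate 3. Its relatives had few or no counts: Kcnk10 had 0, 41 and 0 counts and Kcnk4 0 in each library. In GENCODE vM21, 587 exon bases of Kcnk4 are shared with Catsperz, on the same strand, which has no row in the counts. Reads of the shared part cannot be told apart, which limits what the 0 counts of Kcnk4 show. The acid-sensitive Kcnk9 had 3, 75 and 188 counts and Kcnk3 1, 18 and 0. Kcnk12 and Kcnk13, of the halothane-inhibited pair, had 10, 35 and 2 and 0, 2 and 10 counts. Kcnk13 is also expressed by microglia, whose 6 markers summed to 3.30, 6.81 and 20.9 CPM, with 5, 1 and 3 of 6 at 0 counts, C1qa in each library. These markers did not move together. P2ry12 (0, 2.79 and 17.3 CPM) made up most of the replicate 3 sum, and Csf1r was nearly level (3.30, 2.71 and 3.34 CPM). Cx3cr1, Tmem119 and Aif1 were highest in replicate 2. The part of microglia in the Kcnk13 values was not tested. Kcnk6 had 0, 7 and 4 counts and Kcnk7 0, 0 and 2. Kcnk5, Kcnk15, Kcnk16 and Kcnk18 had 0 counts in each library.

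Kcnma1 (chromosome 14, 23289431 to 24014491, minus strand), the pore of the big-conductance calcium- and voltage-activated channel, had the most counts of any member in replicates 2 and 3. Its 663, 6636 and 8581 counts stood for 9.21, 17.1 and 43.2 CPM per kb, with replicate 3 highest. The level of 1.65 (SE 0.53) missed the threshold (adjusted p = 0.370, limma). Kcnma1 passed by limma without replicate 1 (2.60, adjusted p = 0.00136) and without length correction (3.33, adjusted p = 9.2e-05). It also passed with no filter (3.58, adjusted p = 0.00195, limma), which lowers the median gene. Among its auxiliary subunits, the neuronal Kcnmb4 had 0, 443 and 97 counts, or 0, 5.82 and 2.50 CPM per kb. Kcnmb1, known from smooth muscle, had 27, 326 and 96 counts, was present in every library and lay at -1.46 (SE 0.76, adjusted p = 0.628, limma). In replicate 1 Kcnmb1 had the only auxiliary subunit reads. Kcnmb1 lies inside Kcnip1 on the opposite strand, with 0 exon bases shared; Kcnip1 had 4, 263 and 128 counts. The smooth muscle gene Acta2 had 7, 627 and 141 counts, and its part in the Kcnmb1 values was not tested. Kcnmb2, an inactivating subunit, had 0, 97 and 12 counts and Kcnmb3 0 in each library.

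Small-conductance channels, which are opened by calmodulin and shape the afterhyperpolarisation, were led by Kcnn2 and Kcnn3. Kcnn3 had 440, 685 and 187 counts, or 9.93, 2.86 and 1.53 CPM per kb, highest in replicate 1. Kcnn2 had 169, 378 and 280 counts, or 5.34, 2.21 and 3.21 CPM per kb, also highest in replicate 1 but with a narrower spread. Neither could be placed above the other: the log2 difference was -0.07 (SD 1.01, n = 3) and positive in replicate 3. Kcnn1 had 0, 35 and 0 counts, and Kcnn4, the intermediate-conductance channel of blood and epithelial cells, 0 in each library. Neither passed the threshold (Kcnn2 -0.84, adjusted p = 0.911; Kcnn3 -0.77, adjusted p = 0.931, limma).

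The sodium-activated channels were uneven in favour of Kcnt2. Kcnt2 (chromosome 1, 140246158 to 140612067, plus strand) had 545, 1257 and 1492 counts, or 18.6, 7.96 and 18.5 CPM per kb, with replicate 2 lowest. Kcnt1 had 25, 208 and 112 counts, or 0.620, 0.956 and 1.01 CPM per kb, all below each Kcnt2 value. Kcnt2 made up 93.6 ± 3.89% of the pair (SD, n = 3), and Kcnt1 lay below it by -4.03 on the log2 scale (SD 0.93), lower in 3 of 3 libraries. Against the median gene Kcnt1 lay at -2.81 (SE 0.74, adjusted p = 0.0831) and Kcnt2 at 1.21 (SE 0.53, adjusted p = 0.703, limma). Kcnt1 was called below with libraries thinned to equal depth (-2.96, adjusted p = 0.0219, limma). Kcnt2 was called above with no filter (3.15, adjusted p = 0.0103, limma), which lowers the median gene.

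In all, 14 preset pairs of genes were compared. In 6 the sign was the same in 3 of 3 libraries, which gives the smallest p that the exact two-sided sign-flip test of 3 libraries can reach, 0.25 (0.583 adjusted over the pairs). These were Kcnj9 against Kcnj3, Kcnj10 against Kcnj16, Kcnk2 against Kcnk4, Kcnn1 against Kcnn2, Kcnma1 against Kcnmb4 and Kcnt1 against Kcnt2. When the 15 tested members were ranked by mean level, only 3 of 14 neighbouring pairs differed by more than the SD of their difference. Among them, Kcnt2 exceeded Kcnj13 by 0.90 (SD 0.73), and Kcnj10 exceeded Kcnk2 by 0.51 (SD 0.37), each in 3 of 3 libraries. The top of the order, Kcnj3, Kcnk1, Kcnj6 and Kcnma1, was not resolved.

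**Figure D4:**
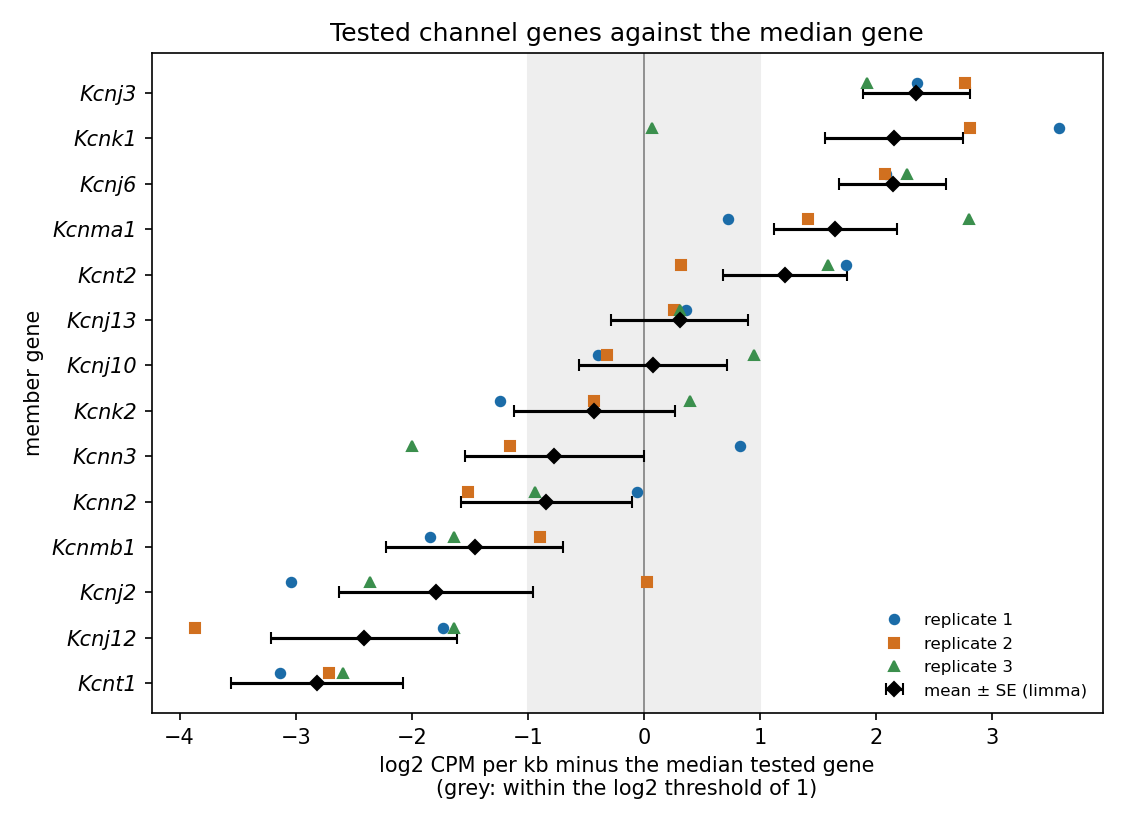
Log2 CPM per kb of the tested members reported here minus that of the median tested gene; diamonds with bars are means with limma standard errors, coloured symbols the 3 libraries, and the grey band the log2 threshold of 1. All 3 libraries of Kcnj3 and Kcnj6 lie right of the band, while Kcnk1 runs from 0.07 to 3.58 and Kcnj2 from -3.04 to 0.03.

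Differences between the libraries exceeded counting error for 13 of the 15 tested members (Poisson chi-square with 2 degrees of freedom, adjusted over all genes), against 97.4% of all 8510 genes that passed the filter. Kcnj13 and Kcnt1 (adjusted p = 0.0835) were the exceptions. Set against the spread typical of genes in these libraries, a negative binomial dispersion of 0.595 estimated with edgeR, 0 members stood out, with 0 at an unadjusted p under 0.05 and 0.0235% of all genes called. The between-library range of Kcnj6, 0.33 log2 units, was at percentile 2.49 of all filtered genes, and that of Kcnk1, 3.36, at percentile 84.1. Of the 32 members with 10 counts somewhere, 7 were highest in replicate 1, 14 in replicate 2 and 11 in replicate 3. Over the 8510 genes that passed the filter, 37.6, 30.5 and 31.9% were highest in replicates 1 to 3. That filter asks for expression in every library. The 32 members needed 10 counts in only 1 library, so these shares are not a like background for them.

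Partner genes of these channels were read from the same fit. All 41 listed had a row, and of the 30 tested 13 lay above the median gene and 1 below, against 9.76% and 3.74% of all genes tested. In the GIRK pathway 6 of 11 tested members lay above: the GABA-B receptor genes Gabbr1 at 43.6 ± 8.79 and Gabbr2 at 35.8 ± 12.6 CPM per kb, the G protein subunit genes Gnb1 at 114 ± 50.3, Gng2 at 116 ± 35.9 and Gng3 at 57.7 ± 33.0, and Rgs7bp, which anchors a GIRK-regulating complex, at 88.9 ± 37.0 (SD, n = 3). Their adjusted p ranged from 6.1e-05 for Gng2 to 0.0259 for Gabbr2 (limma). Gnb4 at 0.703 ± 0.272 lay below (-3.16, adjusted p = 0.0369, limma), a call that ended without replicate 1 or replicate 3.

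Of the Kir scaffolds, 3 of 5 tested lay above, with Dlg2 highest at 79.8 ± 18.2 CPM per kb beside Lin7a at 60.1 ± 30.9 and Lin7c at 57.2 ± 21.9, and Dlg1 lowest at 4.06 ± 1.77 (SD, n = 3). Of the SK partners, 3 of 6 lay above, among them the calmodulin genes Calm2 and Calm3. Calm2 reached 1560 ± 1584 CPM per kb, and close copies of these genes make their counts uncertain. Csnk2b was the lowest of that list at 1.68 ± 1.41. Of the HCN partners, 1 of 3 lay above: Nedd4l, a ubiquitin ligase, at 84.9 ± 29.8 CPM per kb. Pex5l, the main auxiliary subunit of neuronal HCN channels, had 9.81, 14.3 and 19.9 CPM per kb in replicates 1 to 3, lowest where Hcn2 was highest, and did not pass (1.22, adjusted p = 0.690, limma). Kctd3 was the lowest of them at 3.61 ± 3.19.

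Neither regulatory subunit of ATP-sensitive channels passed: Abcc9 stood at 21.5 ± 9.27 and Abcc8 at 2.76 ± 0.912 CPM per kb (SD, n = 3). The BK partners Lingo1 and Lrrc55 (0 of 2 called) stood at 23.0 ± 4.57 and 3.85 ± 1.29, and Lrrc38 and Lrrc52 had 0 counts in each library. Fmr1, whose product binds sodium-activated channels, stood at 4.52 ± 0.163 and did not pass (-0.41, adjusted p = 0.991, limma).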

How the data were processed

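Ribosome-bound RNA of 3 libraries in 1 group was used. The authors deposited, for each library, raw read counts by gene symbol. STAR 2.0.0e, HTSeq and the build mm10 are listed in the submitters' processing notes. Annotation, strand setting and filters are not given in the sources used here. Reads on genes were 16.3, 38.2 and 21.1% of those listed; 50.7, 35.4 and 40.5% had no gene feature. Summary rows were left out.

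Counts were scaled by TMM (edgeR 4.0.16, R 4.3.3); filterByExpr kept 8510 genes, of which 93.1% had a GENCODE vM21 exon length. Log2 CPM per kb (prior count of 2) minus the library's median tested gene was fitted with limma 3.58.1 (trend, TREAT, Benjamini-Hochberg). The filter asks for expression in all 3 libraries. Variation was tested by Poisson chi-square over all filtered genes. In simulated data, 95% of 100 genes set 16-fold above the median were found by limma (7924 genes simulated). False calls were 0% among 99 genes set at the median level, the middle of the band inside the log2 threshold. No tested member lay as far as 16-fold above the median gene, so power at the members' levels was not tested. The Poisson test found 100% of 4-fold differences (8510 genes, 0.229% false calls). Those simulated counts held counting error only, unlike these libraries with a dispersion of 0.595, so that rate does not apply to them. Members and lists were chosen with earlier results of these data known. Named were the members, and of the partners those called and the highest and lowest tested of each list. The settings also tried were no filter, size factors from DESeq2 1.42.0, other lengths, a prior count of 0.5, a test against the same threshold built from edgeR's quasi-likelihood fit and dispersions (its own threshold test takes no intercept-only design; called edgeR's test in the text), thinning, and omission of each replicate. Raising counts under 3 to 3 was added after seeing the data. Some members and partners are not reported here. Figures used matplotlib 3.10.9.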

Additional observations from a re-analysis of the deposited data

How the results depend on the processing

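The members' count above the median gene, 1 of 15, was 6 of 34 with no filter (8 below), where 17.8% of all genes lay above and 16.9% below. It was 4 of 15 without length correction (1 below; all genes 14.1 and 5.21%), 3 of 15 with the edgeR quasi-likelihood test (all genes 13.8% above) and 0 of 14 when thinned (1 below; all genes 9.06 and 3.54%). With 1 replicate left out it was 0 to 4, with 4 of 21 without replicate 1 (all genes 14.6%) and 0 of 17 without replicate 2 (7.21%); the cause was not tested. Partners called were 21 above and 2 below of 38 with no filter, and 0 below with the longest transcript and with edgeR; with 1 replicate left out 0 to 1 were below. With no filter, which lowers the median gene, the members' median was -2.55. In that setting 30 of 34 members varied beyond counting error, but the share of all genes was not computed. With the filter, 97.4% of all genes varied. With a negative binomial dispersion 0 of 15 members varied, against 0.0235% of all filtered genes. The share of Kcnj3 was 26.9% with the longest transcript. With 1 replicate left out, the level of Kcnj10 ranged from -0.22 to 0.80 and that of Kcnk2 from -0.70 to 0.47. No called level changed sign. Uncalled signs turned with no filter for Kcnj2 (0.14), Kcnk2 (1.51), Kcnmb1 (0.47), Kcnn2 (1.09) and Kcnn3 (1.16). They turned without length correction for Kcnj13 (-1.75) and Kcnn3 (0.21), with the longest transcript for Kcnj10 (-0.37) and Kcnj13 (-0.14), when thinned for Kcnj10 (-0.11), without replicate 1 for Kcnk2 (0.47) and without replicate 3 for Kcnj10 (-0.22). No paired analysis was possible because there was 1 group. The replicate 1 total limits calls of members at or near 0 there.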

Other observations

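RefSeq promoter windows (GRCm38.p6, 250 bases before to 50 after a start) were listed for 35 of the 44 members, and the richest window of each gene was used. The CG dinucleotide, which reads the same on both strands, occurred a median of 12 times in the 13 members with at least 10 counts in every library (range 1 to 36), 10 times in the 11 with 10 counts in some libraries (5 to 48) and 6 times in the 10 with 0 counts in every library (2 to 31). Over all 27025 genes with a window the median was 8. The ranges overlapped: Hcn4, with 0 counts in each library, held 31, and Kcnmb1, present in each library, held 1. These values are a description, with no test.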
